A study of Mus musculus with 8 samples.

Results

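Alveolar fibroblasts are the matrix-supporting cells of the lung's gas exchange walls, and 8 genes used to mark them were followed here, namely Inmt, Npnt, Ces1d, Limch1, Slc7a10, Mettl7a1, Scn3a and Gpc3. They were chosen as a named list, with earlier results of these data known, so their direction is not independent evidence. Each was represented by the probe set annotated with that gene alone, and all 8 of them were among the 22180 genes tested. Every member had a single such probe set. The samples were lung mesenchymal cells of C57BL/6J mice of 11 weeks, kept free of specific pathogens. Of these, 4 samples came from control mice given phosphate-buffered saline into the trachea and 4 from mice given bleomycin, a DNA-damaging drug that injures the lung and leads to fibrosis. On day 10 after treatment, cells without CD45, CD31 and EpCAM, which mark leukocytes, endothelium and epithelium, were sorted from whole lungs. The labels name no transgene or other agent, and they do not say whether a sample came from 1 animal or a pool. Nothing says that the replicates were separate animals, so every p-value here reflects variation among these samples alone, and that variation may be technical.

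Alveolar fibroblasts lie beside the alveolar epithelium, hold lipid droplets, and support the type 2 cells that make surfactant. They are thought to be a main source of the fibroblasts that deposit collagen after injury. The 8 genes do unrelated jobs: Npnt and Gpc3 encode proteins of the matrix and the cell surface, Inmt, Mettl7a1 and Ces1d encode enzymes, Slc7a10 and Scn3a encode membrane transport proteins, and Limch1 encodes a protein of the actin cytoskeleton.

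In the bleomycin samples 7 of the 8 genes were lower and none was higher (limma, Benjamini-Hochberg adjusted over all genes). Slc7a10, Mettl7a1, Scn3a and Inmt were lower by more than 2-fold, and Limch1, Npnt and Gpc3 by 1.49-fold, 1.33-fold and 1.31-fold. Ces1d was lower on average and did not pass. Among all genes tested, 8.24% were called lower (1828), 9.12% were called higher (2022), and 1.27% were called lower by more than 2-fold. Centring each array on its median turned this split to 2314 lower and 1623 higher, with 7 of the 8 genes still lower. The median log2 difference of the 8 genes was -0.92, against 0.03 for all genes. In bulk samples like these, fewer cells of a type and less RNA per cell cannot be told apart.

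The values are log2 intensities, in which a difference of 1 is a doubling, and all 8 arrays had medians between 5.47 and 5.54 over the tested genes. The genes of the sorted cells were bright, with control means of 12.58 for Pdgfra, the PDGF receptor of fibroblasts, and 11.94 for Col1a1. Epithelial and endothelial genes were also measured well above the dimmest probe sets, with control means of 12.08 for the surfactant gene Sftpc and 9.87 for Pecam1, which encodes CD31. Control replicates 1 and 2 had more of them than control replicates 3 and 4. Bleomycin replicate 4 lay nearest the controls, with a correlation over genes of 0.984 to 0.986 to the control arrays, against 0.971 to 0.978 for the other bleomycin arrays.

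Sequence before the start site was available for 6 of the 8 genes in RefSeq's promoter table (GRCm38.p6), and the 100 bases just before the start are shown to compare the start regions of genes that were lower together. Where the table held several starts, 3 for Limch1 and 2 for Npnt, the one farthest upstream is shown. For Slc7a10 and Mettl7a1 the start in that table lies 290 and 672 bases inside the gene as RefSeq's gene table bounds it, so their stretches lie within the annotated gene. For the other 4 the start is the first base of the gene. Scn3a and Ces1d are named only. Capitals mark TATAAA, the core of the TATA box, the GC box GGGCGG and the CCAAT box, each on either strand.
Inmt, chr6:55174991-55175090, minus strand: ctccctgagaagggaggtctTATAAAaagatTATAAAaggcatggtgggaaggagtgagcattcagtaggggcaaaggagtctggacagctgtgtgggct
Slc7a10, chr7:35186285-35186384, plus strand: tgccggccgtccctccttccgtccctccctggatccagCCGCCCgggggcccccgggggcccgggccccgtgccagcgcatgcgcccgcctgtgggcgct
Mettl7a1, chr15:100304717-100304816, plus strand: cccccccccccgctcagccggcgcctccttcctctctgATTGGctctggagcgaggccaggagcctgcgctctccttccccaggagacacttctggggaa
Limch1, chr5:66745789-66745888, plus strand: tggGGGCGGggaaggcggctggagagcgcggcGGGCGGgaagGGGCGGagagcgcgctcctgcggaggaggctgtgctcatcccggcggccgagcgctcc
Npnt, chr3:132950292-132950391, minus strand: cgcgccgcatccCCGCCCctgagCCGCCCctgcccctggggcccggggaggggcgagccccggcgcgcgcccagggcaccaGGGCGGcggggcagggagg
Gpc3, chrX:52613975-52614074, minus strand: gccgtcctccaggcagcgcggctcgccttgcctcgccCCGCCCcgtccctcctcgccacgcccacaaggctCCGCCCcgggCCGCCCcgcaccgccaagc

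Over the 250 bases before the start, Inmt was the only one of the 6 with TATAAA, which occurred 2 times in it and in 12.4% of the 32851 windows of the table. The GC box GGGCGG was in 4 of the 6, namely Npnt, Limch1, Slc7a10 and Gpc3, against 32.7% of all windows. The CCAAT box was in Mettl7a1 and Gpc3 and in 33.8% of all windows. CAGCTG, one form of the site that Tcf21 and related factors can bind, was in Inmt alone and in 13.0% of windows. The AP-1 motif TGANTCA was in none of the 6 and in 6.7% of windows. Inmt was 48.0% G and C over these bases, whereas the other 5 were between 68.8% and 74.4%, with a median of 52.4% over all windows. These matches describe the letters only.

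Slc7a10 (probe set 17476732) encodes Asc-1, an exchanger of small neutral amino acids such as serine and alanine, and had the largest difference over all arrays. Mettl7a1 had the larger one without control replicate 2 or 4 or bleomycin replicate 3, and in replicates 1 and 2 alone. The log2 intensity of Slc7a10 was 8.87, 9.27, 9.51 and 9.80 on control replicates 1 to 4 and 7.10, 8.19, 7.21 and 8.27 on bleomycin replicates 1 to 4. Every bleomycin array was below every control array. The mean fell from 9.36 ± 0.40 to 7.69 ± 0.62 (SD, n = 4 each), a log2 difference of -1.67 ± 0.29 (SE), or 3.18-fold lower (limma adjusted p = 0.00325). It was the most variable of the 8 genes among the controls, where replicates 1 and 2 averaged 0.59 below replicates 3 and 4.

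Mettl7a1 (probe set 17315002), a methyltransferase-like protein of the endoplasmic reticulum and lipid droplets, was at 12.23, 12.01, 12.37 and 12.46 on the control arrays. On the bleomycin arrays it was at 9.97, 10.86, 10.46 and 11.32. The groups did not overlap, with a gap of 0.69 between them. The mean fell from 12.27 ± 0.20 to 10.65 ± 0.57 (SD, n = 4 each), which is 3.07-fold lower at a log2 difference of -1.62 ± 0.24 (limma adjusted p = 0.00141). Its close relative Mettl7a3 fell by 0.73 ± 0.11 (limma adjusted p = 0.00185), and their probe sets may share signal. The more distant relative Mettl7b differed by 0.0013 ± 0.08 (limma adjusted p = 0.994), with control and bleomycin means of 4.59 each, near the medians of probe sets without a gene.

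Scn3a (probe set 17385924) encodes the pore of a voltage-gated sodium channel that is known mainly from neurons. The control arrays were tightly grouped at 9.90, 9.95, 9.89 and 9.93, a spread of 0.06. The bleomycin arrays were at 8.11, 8.85, 8.04 and 8.89. The gap of 0.998 between the groups was the widest of the 8 genes. The log2 difference was -1.44 ± 0.19, or 2.71-fold lower (limma adjusted p = 0.000678).

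Inmt (probe set 17467062) encodes a methyltransferase that acts on tryptamine and related amines. It was at 12.77, 12.64, 12.79 and 12.69 on the control arrays and at 11.06, 11.77, 11.03 and 11.99 on the bleomycin arrays. All control arrays were above all bleomycin arrays. The log2 difference was -1.26 ± 0.20, or 2.40-fold lower (limma adjusted p = 0.00203).

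**Figure D1:**
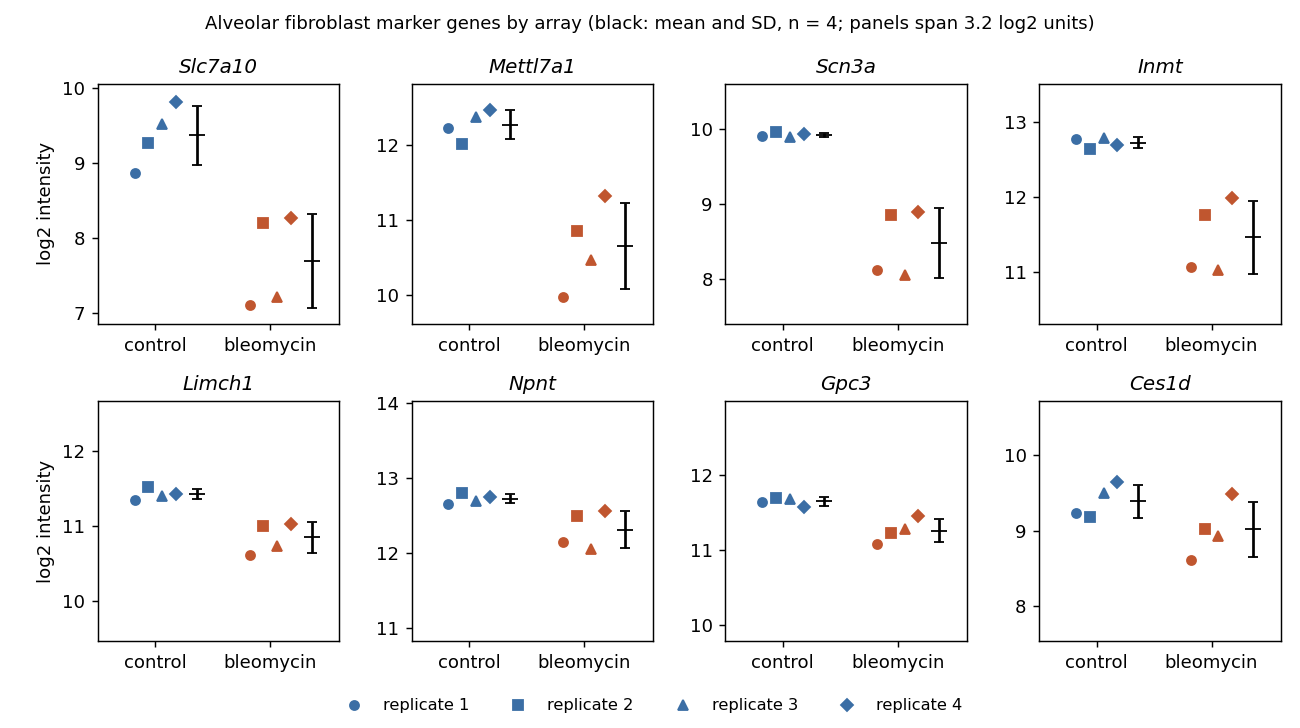
Log2 intensity of each of the 8 genes on each array, with control arrays in blue and bleomycin arrays in red, a symbol for each replicate, and the mean and SD of 4 arrays in black; every panel spans the same range. The control arrays of Scn3a, Gpc3, Npnt, Inmt and Limch1 lie close together, bleomycin replicates 1 and 3 lie below 2 and 4 in most panels, and the groups overlap only for Ces1d.

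Limch1 (probe set 17437887), which binds actin and non-muscle myosin, had a smaller difference with little spread. Its values were 11.35, 11.51, 11.40 and 11.42 on control arrays and 10.62, 11.00, 10.74 and 11.03 on bleomycin arrays. The groups did not overlap, and the log2 difference was -0.58 ± 0.11 (limma adjusted p = 0.00503).

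Npnt (probe set 17410435) encodes nephronectin, a matrix protein that binds the integrin with the subunit encoded by Itga8. It was at 12.66, 12.81, 12.70 and 12.75 on control arrays and at 12.15, 12.49, 12.05 and 12.56 on bleomycin arrays. The lowest control and the highest bleomycin array were only 0.10 apart, and the log2 difference was -0.42 ± 0.12 (limma adjusted p = 0.0399). This call was lost after quantile normalization (-0.37, limma adjusted p = 0.0577). It was also lost when any 1 of control replicates 1, 2, 3 or 4 or bleomycin replicates 1 or 3 was left out, with limma adjusted p from 0.068 to 0.105 and differences from -0.44 to -0.33.

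Gpc3 (probe set 17541681) encodes a glypican, a heparan sulfate proteoglycan of the cell surface that binds hedgehog proteins and other growth factors. It was at 11.64, 11.69, 11.68 and 11.57 on control arrays and at 11.08, 11.22, 11.28 and 11.44 on bleomycin arrays. The groups did not overlap, by 0.13, and the log2 difference was -0.39 ± 0.10 (limma adjusted p = 0.0187). Without control replicate 3 it was -0.37 and missed the threshold (limma adjusted p = 0.053).

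Ces1d (probe set 17511693) encodes a carboxylesterase that breaks down esters and stored triglyceride. Its control values were 9.23, 9.18, 9.50 and 9.64 and its bleomycin values 8.61, 9.02, 8.93 and 9.49. Bleomycin replicate 4 lay within the control range. The log2 difference of -0.37 ± 0.18 did not pass (95% interval -0.77 to 0.02, limma adjusted p = 0.185). Without bleomycin replicate 4 it was -0.53 and passed (limma adjusted p = 0.0342), and then all 8 genes were called lower.

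In 7 of the 8 genes every bleomycin array was below every control array, an arrangement found in 11.0% of all genes tested. The 8 genes also shared an order within the bleomycin group. Replicate 4 was the highest bleomycin array for all 8, and replicate 1 or 3 was the lowest for all 8. Replicates 2 and 4 were both above 1 and 3 in 7 of the 8, the exception being Gpc3. The share of all genes with this order was not counted. Replicate 4 also had the highest bleomycin mean in the other alveolar fibroblast (10.01), adventitial (9.60) and macrophage (7.32) lists. So it did in the type 2 (8.07), type 1 (7.18) and endothelial (7.86) lists. It had the lowest in the pericyte, smooth muscle, fibrotic and inflammatory lists. The mean of the 8 genes was 9.84, 10.43, 9.97 and 10.62 on bleomycin replicates 1 to 4 and between 11.08 and 11.28 on the controls. Over 10 genes of the fibrotic fibroblast state, among them Cthrc1, Postn and Tnc, the means were 10.16, 9.76, 10.04 and 9.32 on the same 4 bleomycin arrays and between 7.38 and 7.65 on the controls. The arrays with the lowest alveolar fibroblast means thus had the highest fibrotic means. All 10 of these genes rose, with a median log2 difference of 2.19. This list and those below were also chosen with earlier results of these data known. Their directions are therefore not independent evidence.

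**Figure D2:**
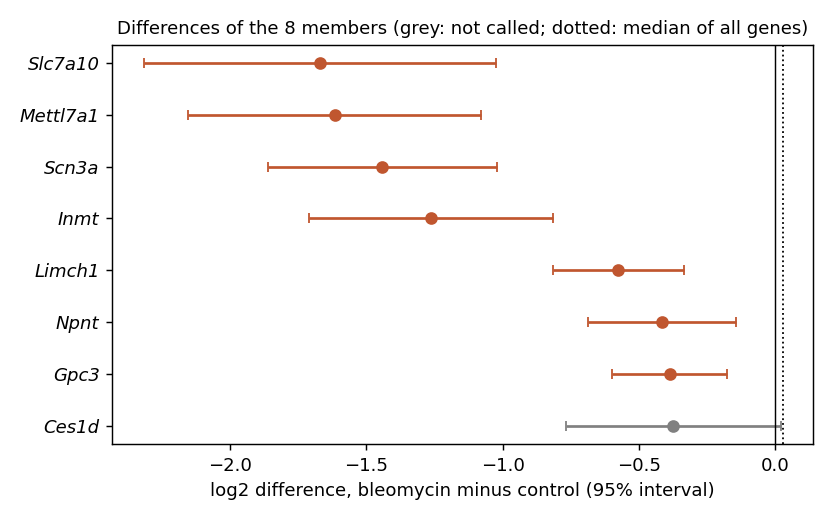
Log2 difference between bleomycin and control arrays for each of the 8 genes, with 95% intervals from limma; the dotted line is the median of all genes, at 0.03. The 4 upper genes lie between -1.67 and -1.26 and the 4 lower ones between -0.58 and -0.37, and only the interval of Ces1d includes 0.

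By the size of the difference the order was Slc7a10, Mettl7a1, Scn3a, Inmt, Limch1, Npnt, Gpc3 and Ces1d. The 7 steps between neighbours were each tested on the per-array difference between the pair, with a two-sided exact permutation test over the 8 arrays. No step passed after adjustment over the 7. The smallest p that 4 against 4 arrays allow is 0.0286. A step could therefore pass only if most of the 7 were at that p, so the test could not decide on a single step. The widest step was from Inmt to Limch1, at 0.69 (exact p = 0.0286, adjusted p = 0.1). The step from Scn3a to Inmt was 0.18, with the same p-values, and that from Limch1 to Npnt was 0.16 (exact p = 0.0571, adjusted p = 0.133). The other 4 steps were between 0.01 and 0.18, with exact p from 0.314 to 0.914. Over 20 refits the first step, from Slc7a10 to Mettl7a1, turned in 4, that from Npnt to Gpc3 in 3 and that from Gpc3 to Ces1d in 7, while the other 4 steps kept their direction. The order within each of these 3 pairs was therefore not settled. The refits reuse the same 8 arrays, so a kept direction does not settle the remaining steps either.

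The 5 other genes whose pattern over the 8 arrays was most like the mean of the members were Cbfa2t3, Ppp1r14a, Nebl, Frmd4b and Fmo2. Their Pearson correlations were between 0.995 and 0.999 over 8 arrays that fall into 2 groups, and all 5 genes were called lower between those groups, so the correlations are a description. Ppp1r14a, an inhibitor of myosin phosphatase, had the largest difference of the 5, at -1.30 ± 0.20 (limma adjusted p = 0.0016). Cbfa2t3, a transcriptional corepressor, differed by -1.21 ± 0.20 (limma adjusted p = 0.00261). Fmo2, a flavin monooxygenase of lung, differed by -0.78 ± 0.15 (limma adjusted p = 0.00511).

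Other genes known from alveolar fibroblasts were also lower. Of 15 measured, 11 were called lower and none higher, with a median log2 difference of -0.65, and none was higher at an unadjusted p under 0.05 either. Fgfr4, a receptor for fibroblast growth factors, fell by 1.20 ± 0.28, from 9.62 to 8.42 (limma adjusted p = 0.0144). Nebl, an actin-binding protein, fell by 1.03 ± 0.16 (limma adjusted p = 0.00209) and Mamdc2, a secreted protein, by 0.93 ± 0.17 (limma adjusted p = 0.00378). Wnt2, a ligand made by lung mesenchyme, fell by 0.75 and Fgf10, a growth factor for epithelial progenitors, by 0.65. Tcf21, the transcription factor that marks this lineage, fell from 10.96 ± 0.21 to 10.33 ± 0.42 (SD, n = 4 each; limma adjusted p = 0.0474). Its call was lost after quantile normalization and without any of control replicates 1, 2, 3 or 4 or bleomycin replicates 1 or 3. Pdgfra fell by 0.43 ± 0.08 (limma adjusted p = 0.00558). Vegfd and Cdh11 did not pass, at 0.04 and 0.16, and Col13a1 and Bmp3 did not pass at -0.48 and -0.46. Without bleomycin replicate 4 both passed. Bmp3 also passed without bleomycin replicate 2, after median centring and with the replicate number as a block. The same held with either dim filter, the trended variance model or array weights, so Bmp3 stayed uncalled in only 12 of 20 refits.

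Markers of the other mesenchymal cells did not move as one. Of 11 adventitial fibroblast genes 5 were lower and 2 higher, with a median of -0.37. Igfbp6 had the largest fall of the 11, from a control mean of 10.96 to 9.46, and kept its call in all 20 refits. Dpp4, a surface peptidase of adventitial progenitors, fell by 1.43 and Pi16, a marker of the same cells, by 0.89, while Cd248 rose by 0.92. Dpp4 was at 8.19 and 8.17 on control replicates 1 and 2 and at 7.20 and 7.02 on 3 and 4. Epithelial and endothelial genes were split in the same way, and their part in the fall of Dpp4 was not tested. The counts depended on single arrays, with 3 lower without control replicate 3 and 1 higher without control replicate 1 or bleomycin replicate 3. Without control replicates 1 and 2 they were 2 lower and 1 higher, and Pi16 lost its call. Of 10 pericyte genes 3 were lower and 3 higher, and of 8 smooth muscle genes 7 were higher. Of 9 inflammatory fibroblast genes 8 were higher, with a median of 1.82. Whether these lists differ from the 8 genes in their shift was not tested.

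**Figure D3:**
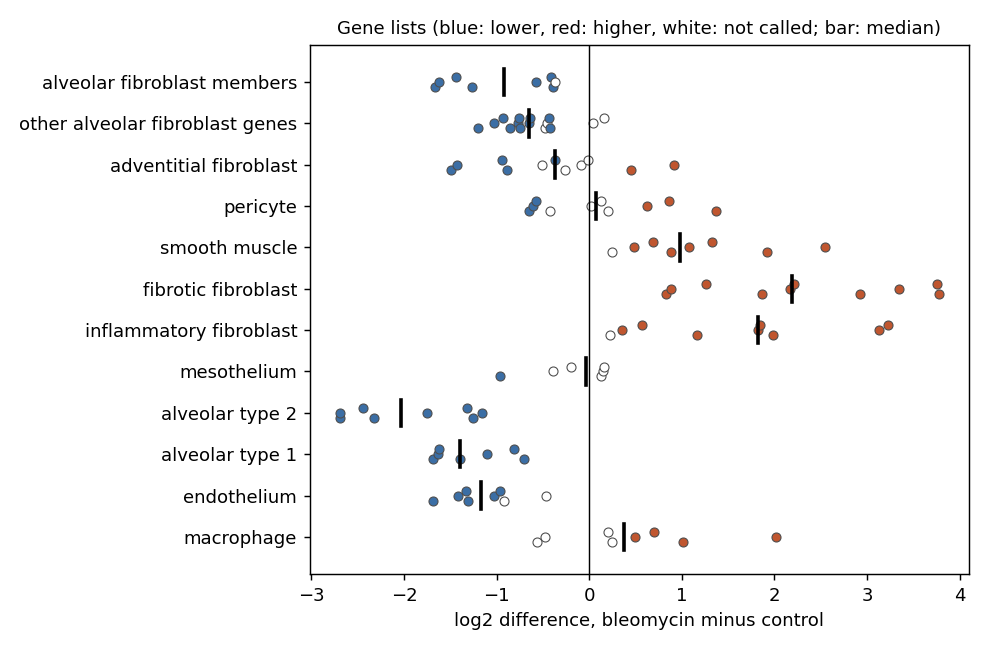
Log2 difference of each measured gene in 12 lists, with genes called lower in blue, called higher in red and not called in white, and a black bar at each list's median. The alveolar fibroblast genes lie left of 0 with few exceptions, as do the alveolar type 1, type 2 and endothelial genes, while the fibrotic genes all lie right of 0.

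The binding partners and relatives of the 8 proteins moved in different directions. Itga8, which encodes the integrin subunit that binds nephronectin, was at 12.08, 12.01, 12.17 and 12.12 on control arrays and at 10.95, 11.28, 11.09 and 11.65 on bleomycin arrays. It fell by 0.85 ± 0.14 (limma adjusted p = 0.00229), and the groups did not overlap. Itgb1, the other subunit of that integrin, rose by 0.30 ± 0.08 (limma adjusted p = 0.0309), a call lost after median centring, with the replicate number as a block, and in 7 of 8 fits that left out 1 array. Egfl6, the closest relative of Npnt, fell by 1.45 ± 0.39 (limma adjusted p = 0.027). That call was lost without control replicate 1 or 2, both of them, or bleomycin replicate 2 or 3. Egfl6 was at 8.70 and 8.63 on control replicates 1 and 2 and at 7.14 and 7.20 on 3 and 4. Epithelial and endothelial genes were also higher on control replicates 1 and 2.

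Slc3a2, the heavy chain that carries Asc-1 to the membrane, differed by -0.10 ± 0.09 and did not pass (limma adjusted p = 0.498). Of the transporters that use the same chain, Slc7a5, a carrier of large neutral amino acids, was at 6.45, 6.66, 6.61 and 6.46 on control arrays and at 8.86, 8.40, 8.71 and 8.08 on bleomycin arrays. It rose by 1.97 ± 0.16 (limma adjusted p = 4.34e-05), against the fall of Slc7a10. The cystine carrier Slc7a11 was called higher (limma adjusted p = 0.00264) from a control mean of 2.97, below the medians of probe sets without a gene, so no size is given. Slc7a8 did not pass, at 0.55, and stayed uncalled in 14 of 20 refits. It passed without control replicate 2 or bleomycin replicate 3, and with the replicate block, either dim filter or the trended variance model.

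Among the glypicans Gpc3 was the only one called lower. Gpc4 was at 6.75, 6.38, 6.37 and 6.47 on control arrays and at 8.32, 8.01, 8.31 and 7.86 on bleomycin arrays. It rose by 1.63 ± 0.13 (limma adjusted p = 4.84e-05) and Gpc1 by 0.71 ± 0.14 (limma adjusted p = 0.0071). Gpc2 and Gpc6 did not pass, at 0.21 and -0.17, nor did Gpc5, which lay below the median of probe sets without a gene on every array. Furin, the protease that cleaves glypican 3, rose by 0.54. The hedgehog target genes Ptch1 and Gli1 did not pass, at -0.55 and -0.21, although Ptch1 did without bleomycin replicate 2 or without the dimmest 50% of genes. Hhip, a hedgehog target counted here among the smooth muscle genes, rose by 0.69 ± 0.12 (limma adjusted p = 0.00284).

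Of 10 other sodium channel genes measured, Scn7a, a channel that senses sodium, fell by 0.66 ± 0.10 (limma adjusted p = 0.00129). It was at 11.76, 11.73, 11.68 and 11.64 on control arrays and at 10.90, 11.12, 10.93 and 11.24 on bleomycin arrays. The auxiliary subunit gene Scn4b was called higher, but on all 4 control arrays it lay below the median of probe sets without a gene, so no size is given. The other 8 were not called. Of the 10, 8 lay below that median on at least 1 array and 4 on every array, where a change could not have been measured well. None of the 7 other Ces1 genes measured was called (Ces1f was, as higher, without bleomycin replicate 1), but 5 of them lay below that median on at least 1 array and 3 on every array, so little can be read from this. Close copies in this cluster may share signal. Among the other enzymes of ester and lipid breakdown, Ces2g fell by 0.70 ± 0.11 and the lipases Pnpla2 and Lipe by 0.89 ± 0.09 and 0.76 ± 0.09. The lipase gene Mgll went the other way, at 0.46 ± 0.14, and narrowly did not pass (limma adjusted p = 0.0504). It stayed uncalled in 15 of 20 refits. It passed with either dim filter, the trended variance model or array weights, and without bleomycin replicate 4. Of the relatives of Inmt, the histamine methyltransferase gene Hnmt fell by 0.68 ± 0.15 (limma adjusted p = 0.0121), and Nnmt did not pass, at 0.07. Lmo7, the closest relative of Limch1, fell by 0.89 ± 0.18. It was at 7.71 and 7.61 on control replicates 1 and 2 and at 7.01 and 6.95 on 3 and 4, a split also seen in epithelial and endothelial genes. The myosin genes Myh9 and Myh10 differed by 0.86 and -0.43, both called.

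Epithelial and endothelial genes, whose cells the sort was meant to remove, were lower in the bleomycin samples as the 8 genes were. Macrophage genes did not move as one. All 8 alveolar type 2 genes were lower, with list means from 8.87 to 10.01 on control and from 7.04 to 8.07 on bleomycin arrays. All 7 alveolar type 1 genes were lower, from 7.84 to 8.59 on control and from 6.51 to 7.18 on bleomycin arrays. Of 8 endothelial genes 6 were lower, from 8.16 to 9.29 on control and from 7.32 to 7.86 on bleomycin arrays. The lowest bleomycin mean among these markers was 5.44, for the type 1 gene Hopx, and the medians of probe sets without a gene were between 4.20 and 4.52. Of 8 macrophage genes 4 were higher and none was lower, with a median of 0.37, although 2 were lower at an unadjusted p under 0.05 (limma) and 2 were called lower without control replicate 4. Ptprc, which encodes CD45, narrowly did not pass, at -0.48 (limma adjusted p = 0.0529). It was called lower after quantile normalization or median centring, and with either dim filter, the trended variance model or array weights. Of 6 mesothelial genes 1 was called lower, or 2 with other scalings, dim filters or variance models and without bleomycin replicate 1. Npnt is also made by alveolar type 1 cells. Control replicates 1 and 2 exceeded control replicates 3 and 4 by 1.03 in the type 2 mean, 0.62 in the type 1 mean and 0.94 in the endothelial mean. Over the same arrays the mean of the 8 genes differed by -0.15. Slc7a10 differed by -0.59, Ces1d by -0.36 and Mettl7a1 by -0.30. Inmt differed by -0.04, Npnt and Scn3a by 0.01, Limch1 by 0.02 and Gpc3 by 0.04. Without control replicates 1 and 2 the type 2, type 1 and endothelial medians were -1.45, -0.96 and -0.79, against -2.04, -1.39 and -1.17 over all arrays. The other alveolar fibroblast genes then had a median of -0.82, with 9 of 15 called lower. The median of the 8 genes was then -0.92, the same as over all arrays. As the midpoint between Inmt and Limch1, it does not register changes in the other genes. In that fit 5 were called lower, Npnt and Gpc3 having lost their calls (limma adjusted p of 0.162 and 0.117). The part of these other cell types in the lower values was not tested.

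**Figure D4:**
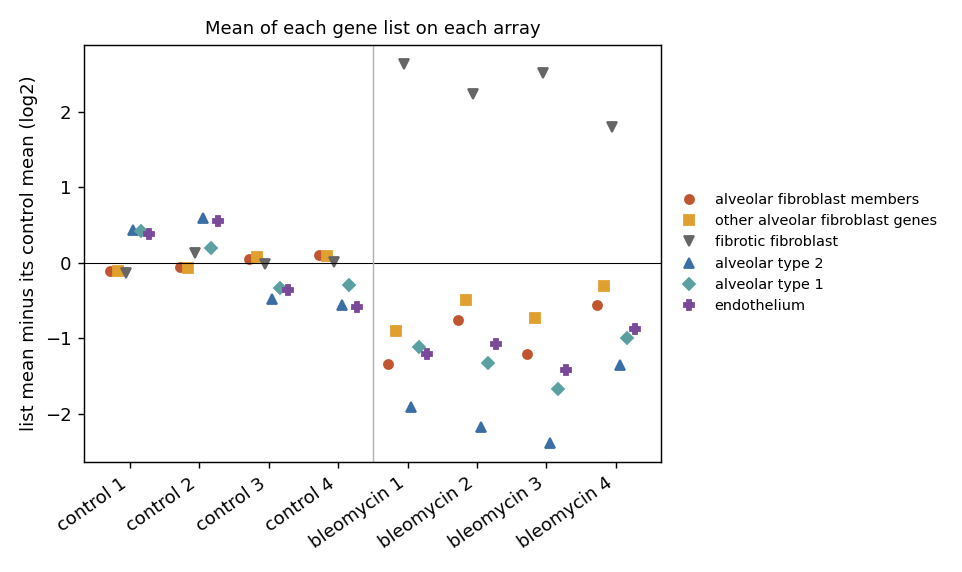
Mean log2 intensity of each gene list on each array, as the difference from that list's mean over the control arrays. The epithelial and endothelial lists are higher on control replicates 1 and 2 than on 3 and 4, the alveolar fibroblast genes are not, and on the bleomycin arrays the alveolar fibroblast genes are lowest on replicates 1 and 3.

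Taking replicates 1 and 2 of both groups alone, Mettl7a1, Scn3a and Inmt were called lower, and taking replicates 3 and 4 alone none of the 8 was, with 5 lower at an unadjusted p under 0.05 (limma). All 8 differences were negative in both. For Slc7a10, Mettl7a1, Scn3a and Inmt they were -1.92, -1.52, -1.44 and -1.23 in replicates 3 and 4. Over all arrays they were -1.67, -1.62, -1.44 and -1.26. The size for Slc7a10 depended on the pair, at -1.42 in replicates 1 and 2, the smallest of its 20 refits. With 2 arrays in each group these fits have few degrees of freedom.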

How the data were processed

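The arrays measured biotin-labelled RNA of 4 control and 4 bleomycin samples, per the labels. The deposited values lie between 0.24 and 13.58 and were treated as log2 intensities, although no scale is named. How the authors corrected, summarised and normalized them is not given in the sources used here. Arrays have no read depth, and their number limits the precision. Of 41345 rows, 23521 had 1 gene in the probe annotation, 1814 several and 16010 none. Each of 22180 genes was represented by its brightest single-gene row (mean of 8 arrays), with values used as deposited. Symbols are those of the annotation. Printed coordinates come from RefSeq's promoter table, and the bounds of the genes from RefSeq's gene table.

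Sample titles gave the groups. The contrast, bleomycin minus control, was fitted by limma 3.58.1 (R 4.3.3) with moderated variances. P-values were two-sided, and those adjusted by the Benjamini-Hochberg method across the 22180 genes were called at 0.05. The procedure was tested on simulated data. Members and lists were chosen with earlier results of these data known, so their direction is not independent evidence. Genes eligible for naming were the members, the lists of their partners, the 5 genes most like the members' mean, and, of each other list, up to 3 called genes with the largest difference in each direction, or the 2 brightest if none was called. Not all of them are named. Tcf21, Wnt2, Fgf10, Pdgfra, Vegfd, Cdh11, Col13a1, Bmp3, Sftpc, Pecam1, Hopx, Pi16, Postn, Cthrc1, Col1a1, Ptprc and Hhip were named outside that rule after their values were seen. Alternatives changed 1 choice at a time: a replicate block, the scaling of the arrays, a filter on the dimmest 30% or 50%, how several rows of a gene are used, the variance model, array weights, which arrays enter, and the threshold. Promoter windows were searched on both strands.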

Additional observations from a re-analysis of the deposited data

How the results depend on the processing

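Across 20 refits all 8 differences stayed negative, and apart from the fits on 2 arrays per group between 5 and 8 of the genes were called lower, also when 1 array was left out. It was 3 with replicates 1 and 2 alone, 0 with replicates 3 and 4 alone and 4 when a 2-fold difference was also asked for. The 11 other alveolar fibroblast genes called lower became 3, 0 and 2 under these settings and 7 at an adjusted p under 0.01. Over all genes the higher and lower counts of 2022 and 1828 became 838 and 833 with replicates 1 and 2 alone, 503 and 220 with replicates 3 and 4 alone, 1205 and 992 with control replicates 1 and 2 left out together, 1079 and 879 at an adjusted p under 0.01 and 440 and 282 with a 2-fold difference. Fewer arrays and stricter thresholds lower counts by construction. Median centring gave 1623 higher and 2314 lower genes, with 7 of the 8 genes still lower. Of these refits, Npnt lost its call in 10, Gpc3 in 4, Slc7a10 and Limch1 in 2 each and the other called genes in 1 each. The step from Gpc3 to Ces1d, 0.01 as reported, turned in 7 refits, among them to -0.0199 with quantile normalization and to -0.19 with control replicates 1 and 2 left out. That from Slc7a10 to Mettl7a1 turned in 4, down to -0.29 with replicates 1 and 2 alone, and that from Npnt to Gpc3 in 3, down to -0.098 in the same fit. The cause was not tested. With the replicate number as a block, the replicate block fit called 7 of the 8 genes lower, 1937 genes higher and 1838 lower. Arrays sharing a number correlated by 0.063 to 0.129 in their deviations from the group means, and controls 2 and 4 correlated best with another number, so the number was not treated as pairing. Levels of the 8 genes were above the median of probe sets without a gene on all 8 arrays, and Slc7a10 was above their 90th percentile on 6 of the 8.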
